A study of Mus musculus with 12 samples.

Results

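Collagens, laminins and the proteins that join them into basement membranes were followed across genotype and age in mouse cerebellum. The members are all probe sets (groups of oligonucleotide probes read as 1 value) that the array annotation gives to exactly 1 gene, where that gene is a numbered collagen chain (Col and a number, a and a number), a laminin alpha, beta or gamma chain, Nid1, Nid2, Sparc or Hspg2. The rule found 81 probe sets of 50 genes among the 22626 probe sets that are not array controls, which cover 12393 genes. These are 58 collagen probe sets of 36 genes, 16 laminin probe sets of 10 genes, and 7 probe sets of Nid1, Nid2, Sparc and Hspg2. Of the 81, 38 probe sets of 26 genes had a mean signal above the filter on low values and were tested, beside 13576 probe sets tested in all.

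RNA was taken from the cerebellum of 12 BALB/c mice, each on 1 Affymetrix array. Npc1+/+ (wild type) and Npc1-/- (null) animals were taken at postnatal day 21 (P21) and day 49 (P49), with 3 animals in each of the 4 groups. The labels name no allele behind Npc1-/- and no treatment. NPC1 is the lysosomal membrane protein that exports cholesterol from lysosomes, and its loss is known to cause loss of Purkinje cells, the output neurons of the cerebellar cortex, with glial activation. The labels describe the samples as individual animals, 11 of them female, and null P49 replicate 1 as male. All values below are quantile normalised log2(intensity + 16), so a level of 1 probe set cannot be set against that of another, and a difference of 1 is a 2-fold change of intensity plus 16.

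The Npc1 probe set 1423086_at read 11.06 to 11.75 on the 6 wild-type arrays and 8.25 to 10.53 on the 6 null arrays, with no overlap. Signals of X- and Y-linked genes went against the sex label on 3 of the female P21 arrays. These are replicate 2 of the wild-type P21 group, with a signal of 9.28 for Xist (the RNA made from the inactive X chromosome), and replicates 2 and 3 of the null P21 group, with 13.01 and 13.36. The other 9 arrays had Xist at 15.61 to 15.86. The Y-linked Eif2s3y read 12.72, 9.25 and 12.67 on the 3 arrays, in that order, and at most 8.91 elsewhere. On the array labelled male, null P49 replicate 1, Eif2s3y read 7.93 and Xist 15.63, so it also went against its label. That array was kept in the fits without the 3 P21 arrays, and was left out by itself in another alternative. Called differences that use the P21 arrays, and some of those not called, are therefore given with and without the 3 P21 arrays, named the 3 arrays below. The latter leaves null P21 with 1 array, whose spread is assumed to be like that of the other groups. Null P21 replicate 2 was the highest of the 6 P21 arrays for 17 of the 38 tested members (44.7%), and for 30.9% of all probe sets tested. Markers of the tissue were measured: all 10 Purkinje cell markers with a probe set and all 7 of cerebellar granule neurons lay above the filter.

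Basement membranes are thin sheets of extracellular matrix under epithelia and around blood vessels. Laminin trimers of an alpha, a beta and a gamma chain and a network of collagen IV form the sheet, nidogens and the proteoglycan perlecan link these networks, and collagen XVIII is attached to many of them. In brain such sheets surround the vessels and line the pial surface, and they are made by endothelial cells, mural cells, astrocytes and fibroblasts. The fibrillar collagens I, III and V are made mainly by fibroblasts, which in brain lie in the meninges and around larger vessels.

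With age, members of this group were lower at P49 than at P21 in both genotypes, and none was called higher. In wild-type mice 6 of the 38 tested probe sets, from 5 genes, passed an adjusted p of 0.05 as lower (15.8%), against 0.464% of all probe sets tested called lower with age and 0.575% called in either direction. In null mice 11 probe sets from 8 genes were called lower (28.9%), against 2.45% of all called lower and 4.57% called in either direction. The median difference of the 38 was -0.46 in wild type and -0.42 in null, where the median over all probe sets tested was 0.006 and -0.002. The sign was negative for 30 of 38 members in wild type and for 31 in null, and for 49% and 50.2% of all probe sets. These tallies are a description, since 12 of the 38 had a P49 group mean below the filter value and some of these passed the filter through their P21 arrays. Over all 81 members with no filter, 61 were negative in wild type (median -0.29) and 54 in null (median -0.24), where 49.2% and 50.6% of all 22626 probe sets were negative. The wild-type and null age comparisons share no array, but they share the estimate of the spread and the filter, both taken over all 12 arrays. A set of 3 probe sets, of Col4a1, Nid1 and Col9a1, was called in both, which is 50% of those called in wild type and 27.3% of those called in null. No difference in the age change between the genotypes was called for any member other than Col18a1. All calls are from limma with Benjamini-Hochberg adjustment over the 13576 probe sets. Without the 3 arrays whose sex-linked genes go against the label, 5 of 38 members were called lower in wild type (13.2%, against 0.773% of all probe sets called lower) and 6 in null (15.8%, against 2.86%), and 29 and 26 were negative, with medians of -0.40 and -0.28. Leaving out 1 array took the wild-type count to 1 (any wild-type P21 array, or wild-type P49 replicate 2 or 3) or 2 (wild-type P49 replicate 1), and left 8 to 13 in null. In bulk tissue fewer cells of a type and less RNA per cell cannot be told apart.

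**Figure D1:**
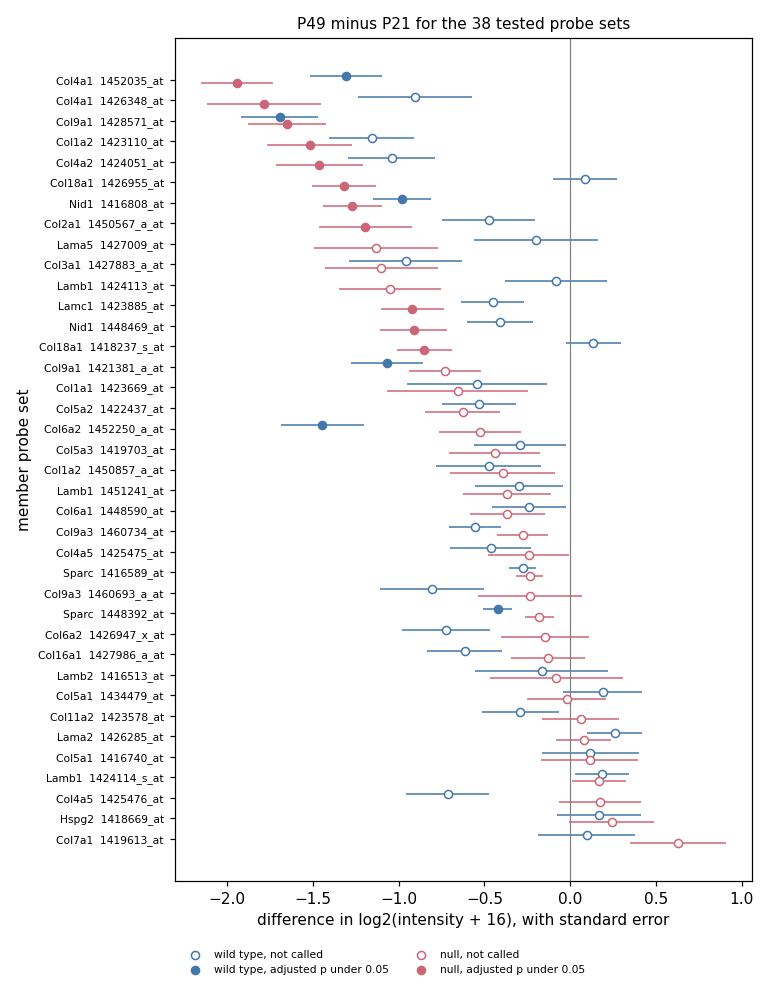
Difference in log2(intensity + 16) between P49 and P21 for the 38 tested members in wild-type and in null mice, with standard errors from the fit over 12 arrays; filled points passed an adjusted p of 0.05. The points left of 0 number 30 of 38 in wild type and 31 of 38 in null, including members that passed the filter through their P21 arrays, and every filled point is negative.

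Type IV collagen gave the largest age difference among the tested members in null mice. Col4a1 and Col4a2 encode the alpha-1 and alpha-2 chains, which assemble into the collagen IV trimer found in nearly all basement membranes. The genes lie head to head on opposite strands, so that their start regions are shared. In the RefSeq table on build GRCm38.p6, the start of Col4a1 on the minus strand is at chr8:11312826 and that of Col4a2 on the plus strand is at chr8:11312805. The stretch of 22 bases between and including both starts is shown. Col4a1 runs from its start to lower coordinates and Col4a2 to higher ones, so this stretch lies in both annotated transcripts. It is written on the plus strand, 5′ to 3′, with a GC box (GGGCGG or its reverse complement CCGCCC) in capitals.
Col4a1/Col4a2 start region, chr8:11312805-11312826: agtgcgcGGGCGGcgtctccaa

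Col4a1 (1452035_at) read 12.74, 12.58 and 12.95 in wild type at P21, 13.11, 13.29 and 12.69 in null at P21, 11.95, 11.15 and 11.25 in wild type at P49, and 11.22, 11.04 and 10.99 in null at P49. All 6 P21 arrays lay above all 6 P49 arrays, and the genotypes overlapped at both ages. The change with age was -1.31 ± 0.21 (SE; adjusted p = 0.0147, limma) in wild type and -1.94 ± 0.21 (adjusted p = 0.000178, limma) in null. Without the 3 arrays whose sex-linked genes go against the label these were -1.39 (adjusted p = 0.0098, limma) and -2.03 (adjusted p = 0.00135, limma). The wild-type call was lost when wild-type P21 replicate 1, 2 or 3 or wild-type P49 replicate 2 or 3 was left out (adjusted p 0.0509 to 0.0954, limma).

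A second Col4a1 probe set, 1426348_at, read 11.60, 11.88 and 11.85 in wild type at P21 and 12.12, 12.89 and 12.20 in null at P21. At P49 it read 11.30, 10.81 and 10.50 in wild type and 9.72, 11.06 and 11.08 in null, so the ages did not overlap in either genotype. The change was -0.91 ± 0.33 in wild type (adjusted p = 0.376, limma) and -1.79 ± 0.33 in null (adjusted p = 0.00816, limma). Without the 3 arrays the null change was -1.51 and was no longer called (adjusted p = 0.0743, limma), and a fit to the null arrays alone did not call it either (adjusted p = 0.0757, limma).

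Col4a2 (1424051_at) read 11.73, 11.84 and 11.95 in wild type and 12.12, 12.62 and 11.87 in null at P21. At P49 it read 11.32, 10.85 and 10.21 in wild type and 10.92, 10.53 and 10.76 in null. Every P49 array was again below every P21 array. The age change was -1.46 ± 0.25 in null (adjusted p = 0.00554, limma), and -1.39 without the 3 arrays (adjusted p = 0.0321, limma). In wild type it was -1.04 ± 0.25 (adjusted p = 0.132, limma), and leaving out null P21 replicate 2 took it past the threshold (adjusted p = 0.0457, limma). The test of the difference in age change between genotypes gave -0.42 ± 0.36 for Col4a2 (adjusted p = 0.843, limma) and -0.64 ± 0.30 for Col4a1 1452035_at (adjusted p = 0.645, limma). Col4a5, the X-linked alpha-5 chain, had 2 tested probe sets with age changes of -0.46 and -0.71 in wild type and -0.24 and 0.17 in null, none called. The Col4a3, Col4a4 and Col4a6 probe sets lay below the filter.

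**Figure D2:**
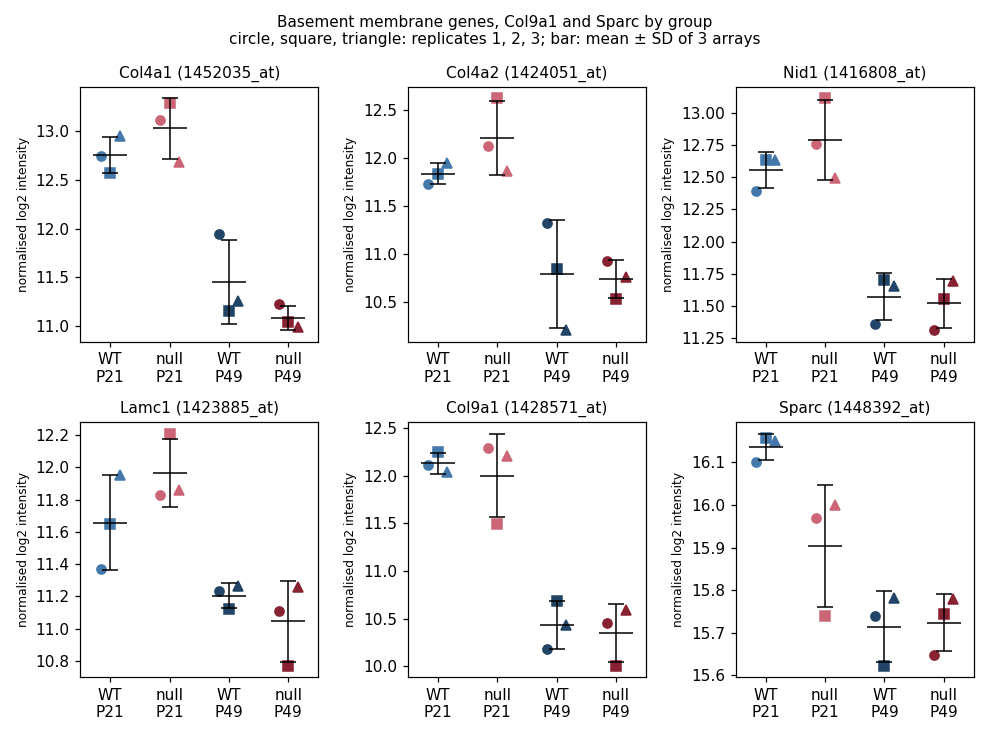
Normalised log2 intensity of 6 member probe sets on each of the 12 arrays by genotype and age, with the mean and SD of 3 arrays; each panel has its own axis, which does not start at 0. The P49 arrays of Col4a1, Col4a2, Nid1 and Col9a1 lie below all P21 arrays, and those of Sparc 1448392_at overlap the P21 range only through null P21 replicate 2.

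Nid1 encodes nidogen-1, which binds the laminin gamma-1 chain and collagen IV. The 250 bases before its annotated start are printed with those of Col18a1 and Col9a1. Each of these 3 genes had a probe set whose call with age in null held under every alternative in which it was tested. The same was true of Col4a1 1452035_at and Col4a2 1424051_at with age in null. Nid1 (1416808_at) read 12.40, 12.63 and 12.64 in wild type and 12.76, 13.11 and 12.49 in null at P21, and 11.36, 11.70 and 11.66 in wild type and 11.31, 11.55 and 11.70 in null at P49. The ages were separated by more than the spread within any group, and the genotypes overlapped at each age. The change with age was -0.98 ± 0.17 in wild type (adjusted p = 0.0209, limma) and -1.27 ± 0.17 in null (adjusted p = 0.00112, limma). Without the 3 arrays it was -0.94 (adjusted p = 0.0234, limma) and -1.24 (adjusted p = 0.00573, limma). Leaving out any 1 of the 6 wild-type arrays ended the wild-type call (adjusted p 0.0599 to 0.119, limma), with the difference between -0.88 and -1.06 over all alternatives run.

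The second Nid1 probe set, 1448469_at, read 10.74, 10.79 and 10.65 in wild type and 10.71, 10.99 and 11.25 in null at P21. At P49 it read 10.19, 10.55 and 10.22 in wild type and 9.98, 10.28 and 9.96 in null. The ages did not overlap in either genotype. Its change was -0.41 ± 0.19 in wild type (adjusted p = 0.55, limma) and -0.91 ± 0.19 in null (adjusted p = 0.0166, limma). The null call was lost without the 3 arrays (-0.65, adjusted p = 0.177, limma), without null P49 replicate 1 (adjusted p = 0.056, limma) or 3 (adjusted p = 0.0767, limma), on the values as deposited (adjusted p = 0.072, limma) and in a fit to the null arrays alone (adjusted p = 0.118, limma).

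The second nidogen, Nid2, had 1 probe set (1423516_a_at), which was below the filter and was not tested. It read 9.07, 9.60 and 9.14 in wild type and 9.67, 9.87 and 9.33 in null at P21, and 5.56, 8.46 and 7.62 in wild type and 8.98, 8.45 and 9.11 in null at P49. Its 6 P49 values lay below the P21 values of the same genotype, at levels where single arrays scatter widely.

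Among the laminins 1 of 7 tested probe sets was called in any comparison, lower with age in null. Of all probe sets tested 2.45% were called lower in that comparison. Lamc1 encodes the gamma-1 chain, which is shared by most laminin trimers. Lamc1 (1423885_at) read 11.37, 11.65 and 11.96 in wild type and 11.83, 12.21 and 11.86 in null at P21. It read 11.23, 11.12 and 11.26 in wild type and 11.11, 10.77 and 11.26 in null at P49, below the P21 arrays in both genotypes. The change was -0.92 ± 0.18 in null (adjusted p = 0.0112, limma) and -0.45 ± 0.18 in wild type (adjusted p = 0.428, limma). The null call ended without the 3 arrays (-0.79, adjusted p = 0.0888, limma), without null P49 replicate 2 (adjusted p = 0.0707, limma) and with the null arrays alone (adjusted p = 0.076, limma).

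Lamb1, the beta-1 chain, had 3 tested probe sets that differed among themselves. Lamb1 1424113_at read 10.32, 10.73 and 10.47 in wild type and 10.70, 10.84 and 9.86 in null at P21, and 9.92, 10.65 and 10.69 in wild type against 9.51, 9.68 and 9.08 in null at P49. The null P49 arrays were the lowest of the 12, all below the filter value of 9.929. The genotype difference at P49 was -1.003 ± 0.30 (adjusted p = 0.145, limma), the third smallest p of the members there, and the age difference in null was -1.05 ± 0.30 (adjusted p = 0.0636, limma). Leaving out null P21 replicate 3 called the latter (-1.35, adjusted p = 0.0142, limma), and without the 3 arrays it was -1.30 (adjusted p = 0.0554, limma). For 1424114_s_at, whose suffix marks probes shared between transcripts, the P49 genotype difference was -0.10 ± 0.16, and for 1451241_at it was -0.08 ± 0.26.

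The other laminin chains gave no call. Lamb2 (1416513_at), the beta-2 chain, read 9.56, 10.51 and 10.63 in wild type and 9.83, 11.48 and 10.43 in null at P21, and 9.93, 9.78 and 10.47 in wild type and 10.36, 10.31 and 10.83 in null at P49, with all groups overlapping. Lama5 (1427009_at), the alpha-5 chain of mature vessel laminin, read 9.94, 10.30 and 10.46 in wild type and 10.57, 10.88 and 10.82 in null at P21, and 10.04, 9.80 and 10.27 in wild type and 9.91, 8.58 and 10.37 in null at P49. Its null age difference of -1.13 ± 0.36 was not called (adjusted p = 0.0957, limma) unless null P49 replicate 3 was left out (adjusted p = 0.0467, limma), and was -0.96 without the 3 arrays. Lama2 (1426285_at), the alpha chain found in astrocyte and pericyte laminin, had its groups between 10.93 and 11.54 and differences of 0.26 ± 0.16 and 0.08 ± 0.16 with age in wild type and null. Lama4 (1424807_at), the alpha-4 chain of endothelial laminin, was below the filter and was not tested. It read 10.22, 9.08 and 9.04 in wild type and 10.19, 10.06 and 10.23 in null at P21, and 7.85, 8.28 and 7.25 in wild type and 9.34, 9.08 and 9.14 in null at P49, with the lowest values in wild type at P49.

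Hspg2, which encodes perlecan, was called in no comparison. The probe set 1418669_at read 11.12, 11.89 and 11.10 in wild type and 11.23, 12.01 and 11.16 in null at P21, and 11.70, 11.48 and 11.43 in wild type and 11.51, 11.81 and 11.81 in null at P49. The age differences were 0.17 ± 0.25 in wild type (adjusted p = 0.915, limma) and 0.24 ± 0.25 in null (adjusted p = 0.62, limma), and the groups overlapped throughout. They were 0.43 and 0.48 without the 3 arrays, not called.

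Sparc encodes a collagen-binding matricellular glycoprotein made by glia and vascular cells. Its probe sets had small spreads between arrays. Sparc 1448392_at read 16.10, 16.16 and 16.15 in wild type and 15.97, 15.74 and 16 in null at P21, and 15.74, 15.62 and 15.78 in wild type and 15.65, 15.74 and 15.78 in null at P49. The change with age was -0.42 ± 0.08 in wild type (adjusted p = 0.0453, limma) and -0.18 ± 0.08 in null (adjusted p = 0.261, limma), and without the 3 arrays -0.40 (adjusted p = 0.028, limma) and -0.24 (adjusted p = 0.151, limma). The wild-type call was lost when any 1 of the 6 wild-type arrays or of the 3 null P49 arrays was left out (adjusted p 0.0648 to 0.233, limma), on the values as deposited (0.0819), with no filter (0.0929), without the mean-variance trend (0.171) and with the replicate number as a block (0.0632). Sparc also had the smallest p of the members between genotypes at P21, with a difference of -0.23 ± 0.08 (adjusted p = 0.438, limma) that was -0.15 without the 3 arrays. The probe set with the higher signal, 1416589_at, read 16.45, 16.35 and 16.30 in wild type and 16.34, 16.23 and 16.41 in null at P21, and 16.16, 16.10 and 16.01 in wild type and 16.01, 16.10 and 16.17 in null at P49. Its age differences of -0.28 ± 0.08 and -0.24 ± 0.08 were not called (adjusted p = 0.21 and 0.111, limma), although no P49 array reached a P21 array. The null difference was called on the values as deposited (adjusted p = 0.0413, limma).

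Collagen XVIII was the member called between the genotypes. Col18a1 encodes a basement membrane collagen with heparan sulphate chains whose C-terminal fragment is endostatin, and in the cerebellum it is known to be made by Purkinje cells. It is transcribed from more than 1 start. The windows of 250 bases before the annotated starts in the RefSeq promoter table (build GRCm38.p6), which holds 35 of the 50 member genes, are shown 5′ to 3′ on the gene's strand. Capitals mark GC boxes (GGGCGG or CCGCCC) and CCAAT boxes (CCAAT or ATTGG) on either strand; a GC box and a reversed CCAAT box can share guanines.
Col18a1 upstream start, chr10:77166531-77166780, minus strand: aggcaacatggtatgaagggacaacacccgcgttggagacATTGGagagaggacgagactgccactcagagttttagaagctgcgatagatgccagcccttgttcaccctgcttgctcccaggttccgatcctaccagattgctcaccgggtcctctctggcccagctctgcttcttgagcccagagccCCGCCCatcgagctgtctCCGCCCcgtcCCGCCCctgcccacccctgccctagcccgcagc
Col18a1 downstream start, chr10:77113706-77113955, minus strand: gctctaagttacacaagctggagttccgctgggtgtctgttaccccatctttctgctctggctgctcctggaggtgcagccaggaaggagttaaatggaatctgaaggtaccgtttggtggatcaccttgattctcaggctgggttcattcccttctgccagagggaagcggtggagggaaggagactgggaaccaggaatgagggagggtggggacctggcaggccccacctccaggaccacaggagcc
Nid1, chr13:13437352-13437601, plus strand: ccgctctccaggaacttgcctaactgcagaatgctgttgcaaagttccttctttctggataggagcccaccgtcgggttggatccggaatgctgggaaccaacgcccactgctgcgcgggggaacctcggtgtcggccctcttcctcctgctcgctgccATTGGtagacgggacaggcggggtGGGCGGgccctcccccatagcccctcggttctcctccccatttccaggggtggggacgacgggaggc
Col9a1 upstream start, chr1:24177360-24177609, plus strand: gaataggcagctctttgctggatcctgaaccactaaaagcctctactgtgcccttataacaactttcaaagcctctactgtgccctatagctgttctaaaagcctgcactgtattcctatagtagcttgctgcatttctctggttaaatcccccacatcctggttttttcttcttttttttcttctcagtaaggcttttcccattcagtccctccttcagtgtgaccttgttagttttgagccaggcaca
Col9a1 downstream start, chr1:24194953-24195202, plus strand: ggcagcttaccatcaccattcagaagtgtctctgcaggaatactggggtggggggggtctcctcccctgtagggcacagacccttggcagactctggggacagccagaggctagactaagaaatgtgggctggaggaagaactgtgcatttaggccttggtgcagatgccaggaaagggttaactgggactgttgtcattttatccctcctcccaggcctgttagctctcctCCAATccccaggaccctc

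The upstream Col18a1 window holds 3 GC boxes and 1 CCAAT box, and the Nid1 window holds 1 of each. The downstream Col18a1 window and the upstream Col9a1 window hold neither, and the downstream Col9a1 window holds 1 CCAAT box. A GC box lies in 20 of the 39 member windows (51.3%) and in 32.7% of the 32851 windows of that length in the table. A CCAAT box lies in 14 of the member windows (35.9%) and in 33.8% of all. The array does not tell which start a probe set's transcripts used.

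Col18a1 (1426955_at) read 12.71, 12.97 and 12.56 in wild type and 12.83, 12.93 and 12.86 in null at P21. At P49 it read 12.77, 12.92 and 12.80 in wild type and 12.00, 11.10 and 11.56 in null. The 3 null P49 arrays lay below the other 9, which spanned 12.56 to 12.97, and had an SD of 0.45 against 0.05 to 0.21 in the other groups. Null was 2.42-fold lower than wild type at P49, a difference of -1.28 ± 0.19 ( adjusted p = 0.0015, limma), and differed from null at P21 by -1.32 ± 0.19 (adjusted p = 0.00146, limma). At P21 the genotypes differed by 0.13 ± 0.19 (adjusted p = 0.821, limma), and wild type changed by 0.08 ± 0.19 with age (adjusted p = 0.956, limma). The null age difference was -1.27 without the 3 arrays (adjusted p = 0.0148, limma). The P49 and the null age comparison share the null P49 arrays. Neither call was lost under any alternative run.

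The second Col18a1 probe set, 1418237_s_at, whose suffix marks probes shared between transcripts, followed the same order. It read 11.67, 11.93 and 11.73 in wild type and 11.80, 11.97 and 12.01 in null at P21, and 11.86, 12.05 and 11.81 in wild type and 11.38, 10.78 and 11.06 in null at P49. The null P49 arrays were again below all others, with differences of -0.83 ± 0.16 from wild type (adjusted p = 0.0123, limma) and -0.85 ± 0.16 from null P21 (adjusted p = 0.00869, limma). The P49 genotype call was lost without wild-type P49 replicate 2 (adjusted p = 0.0761, limma), null P49 replicate 2 (0.0827) or null P49 replicate 3 (0.0634). The null age call was lost without null P49 replicate 2 (0.055), without the 3 arrays (-0.73, 0.0763) and with the null arrays alone (0.095).

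The difference of the genotype difference between ages was tested as an interaction. For Col18a1 1426955_at it was -1.41 ± 0.26 (adjusted p = 0.0334, limma), 1 call among the 38 members, where 0.427% of all probe sets were called in either direction. It was lost without the 3 arrays (-1.47, adjusted p = 0.0893, limma), without the mean-variance trend (0.0674), with the replicate number as a block (0.075) and on leaving out any 1 of 8 arrays, namely wild-type P21 replicates 1 and 3, null P21 replicate 3, the 3 wild-type P49 arrays and null P49 replicates 2 and 3 (0.053 to 0.119). For 1418237_s_at it was -0.98 ± 0.23 (adjusted p = 0.106, limma), called only without null P49 replicate 1 (0.0359). The members with the next smallest p were Col6a2 1452250_a_at, at 0.92 ± 0.34 (adjusted p = 0.492, limma), and Col4a5 1425476_at, at 0.89 ± 0.34 (adjusted p = 0.504, limma). Col4a5 1425476_at read 10.28, 10.57 and 10.97 in wild type and 10.45, 10.77 and 10.11 in null at P21, and 9.98, 9.56 and 10.14 in wild type and 10.70, 10.49 and 10.64 in null at P49, where the genotypes did not overlap.

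**Figure D3:**
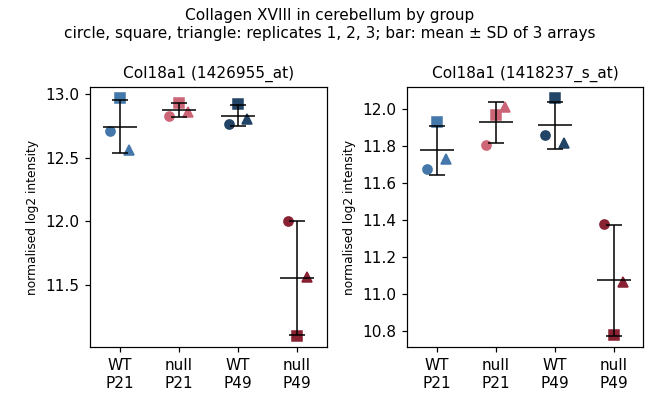
Normalised log2 intensity of both Col18a1 probe sets on each of the 12 arrays by genotype and age, with the mean and SD of 3 arrays; the axes do not start at 0. The 3 null P49 arrays lie below all others, at 11.10 to 12.00 for 1426955_at and 10.78 to 11.38 for 1418237_s_at.

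Purkinje cell markers moved in the same comparison. Of 12 listed markers 10 had a probe set, all above the filter, and 8 of them were lower in null than in wild type at P49 (median -0.93). Their summed intensity was 797338 to 834733 in wild type and 484774 to 642306 in null at P49, and 679013 to 790562 and 708521 to 765203 at P21. Within the null P49 group, replicate 1 had the highest and replicate 2 the lowest sum, the same order as in both Col18a1 probe sets. The summed intensity of choroid plexus markers had that order there as well (224370, 81452 and 216320 for replicates 1, 2 and 3). With 3 arrays that order was not tested, and the part of the Purkinje marker difference in the Col18a1 difference was not tested.

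Collagen IX had the largest age difference among the tested members in wild-type mice. Col9a1 encodes the alpha-1 chain of this collagen, which lies on the surface of collagen II fibrils in cartilage. Col9a1 (1428571_at) read 12.11, 12.25 and 12.04 in wild type and 12.29, 11.49 and 12.21 in null at P21, and 10.18, 10.69 and 10.44 in wild type and 10.45, 10.00 and 10.59 in null at P49. The change was -1.70 ± 0.23 in wild type (3.24-fold lower, adjusted p = 0.004, limma) and -1.65 ± 0.23 in null (adjusted p = 0.00123, limma). Both calls held under every alternative in which the probe set was tested. Without the 3 arrays the changes were -1.64 (adjusted p = 0.00478, limma) and -1.95 (adjusted p = 0.00215, limma).

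Col9a1 1421381_a_at read 11.20, 11.00 and 10.57 in wild type and 10.96, 10.57 and 11.04 in null at P21, and 9.90, 9.73 and 9.93 in wild type and 10.17, 10.25 and 9.95 in null at P49. It was lower on every P49 array than on any P21 array. The change was -1.07 ± 0.21 in wild type (adjusted p = 0.041, limma) and -0.73 ± 0.21 in null (adjusted p = 0.0662, limma). The null change was called without the mean-variance trend (adjusted p = 0.0408, limma) and without null P21 replicate 2 (adjusted p = 0.0314, limma). The wild-type call was lost without the 3 arrays (0.0627), with values as deposited (0.0563), with no filter (0.0805), with the replicate number as a block (0.0735) and on leaving out any 1 wild-type or null P49 array (0.0529 to 0.196). Its wild-type P49 mean, 9.85, was below the filter value, so the size of the change is uncertain. Col9a3, the alpha-3 chain, had 2 tested probe sets with age differences of -0.81 and -0.56 in wild type and -0.24 and -0.28 in null, none called, and the Col9a2 probe set was below the filter.

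Collagen VI forms beaded filaments in the matrix around cells. Col6a2 (1452250_a_at), its alpha-2 chain, read 11.71, 11.59 and 11.93 in wild type and 10.96, 11.53 and 10.91 in null at P21, and 10.43, 10.10 and 10.37 in wild type and 10.25, 11.14 and 10.43 in null at P49. Wild-type arrays did not overlap between ages, and null arrays did. The age change was -1.45 ± 0.24 in wild type (adjusted p = 0.0185, limma) and -0.53 ± 0.24 in null (adjusted p = 0.245, limma). The wild-type call was lost on leaving out any 1 wild-type array (0.0537 to 0.107), and without the 3 arrays the change was -1.53 (adjusted p = 0.019, limma). The genotypes did not overlap at P21, where the difference of -0.61 ± 0.24 was not called (adjusted p = 0.473, limma), nor was the -0.86 without the 3 arrays (adjusted p = 0.565, limma). A second probe set, 1426947_x_at, whose suffix marks probes that may match other sequences, changed by -0.73 ± 0.26 in wild type and -0.14 ± 0.26 in null, not called. The wild-type change was called with the wild-type arrays alone (adjusted p = 0.0402, limma) and without null P21 replicate 2 (adjusted p = 0.0432, limma). Col6a1 1448590_at had differences of -0.24 and -0.37.

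Of 10 tested probe sets of fibrillar collagens, none was called with age in wild type and 2 were called lower with age in null. Of all probe sets tested, 0.464% and 2.45% were called lower in these comparisons. Col1a2, the alpha-2 chain of collagen I, gave both a called and an uncalled probe set. Col1a2 1423110_at read 10.80, 11.26 and 11.00 in wild type and 11.08, 11.97 and 11.36 in null at P21, and 9.83, 9.77 and 9.98 in wild type and 10.08, 9.55 and 10.21 in null at P49, with the ages apart in both genotypes. The change was -1.52 ± 0.25 in null (adjusted p = 0.0038, limma), -1.14 without the 3 arrays (adjusted p = 0.0473, limma) and not called with the null arrays alone (adjusted p = 0.0523, limma). In wild type it was -1.16 ± 0.25 (adjusted p = 0.061, limma), called on leaving out null P21 replicate 1 (0.0409) or 2 (0.016) and with the wild-type arrays alone (0.0162).

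The Col1a2 probe set of higher signal, 1450857_a_at, read 12.65, 13.03 and 12.76 in wild type and 12.41, 14.13 and 13.19 in null at P21, and 12.47, 12.10 and 12.45 in wild type and 12.65, 12.98 and 12.92 in null at P49. Its null age difference was -0.39 ± 0.31 (adjusted p = 0.505, limma), with the null ages overlapping, and turned to 0.44 without the 3 arrays (adjusted p = 0.181, limma). The 2 probe sets of this gene thus gave null age differences of -1.52 and -0.39. Col2a1 (1450567_a_at), the chain of cartilage collagen II, read 10.38, 10.61 and 10.38 in wild type and 10.30, 11.56 and 10.90 in null at P21, and 10.08, 10.05 and 9.81 in wild type and 9.64, 9.60 and 9.94 in null at P49. Its null change of -1.20 ± 0.27 (adjusted p = 0.0235, limma) was -0.58 without the 3 arrays (adjusted p = 0.255, limma). That call was also lost without null P49 replicate 1 (0.0715), 2 (0.105) or 3 (0.0537), on values as deposited (0.0645) and with the null arrays alone (0.152). The null P49 mean was 9.73, below the filter value.

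Col1a1 (1423669_at), the alpha-1 chain of collagen I, read 10.92, 11.54 and 10.71 in wild type and 10.41, 12.62 and 11.62 in null at P21, and 10.64, 10.47 and 10.44 in wild type and 10.64, 10.83 and 11.22 in null at P49. Its null P21 arrays spanned more than any other group, and the age differences of -0.54 ± 0.41 and -0.66 ± 0.41 were not called. Without null P21 replicate 1 the null difference was -1.22 and was called (adjusted p = 0.0394, limma), and without the 3 arrays it turned to 0.49 (adjusted p = 0.292, limma). Col3a1 (1427883_a_at), collagen III, read 12.20, 12.78 and 11.91 in wild type and 11.48, 13.06 and 12.50 in null at P21, and 11.32, 11.44 and 11.25 in wild type and 11.63, 11.02 and 11.09 in null at P49. Its age differences were -0.96 ± 0.33 (adjusted p = 0.335, limma) and -1.10 ± 0.33 (adjusted p = 0.0765, limma), the latter called without null P21 replicate 1 (-1.52, adjusted p = 0.0067, limma) and at -0.23 without the 3 arrays (adjusted p = 0.604, limma). The wild-type difference of Col3a1 was called with the wild-type arrays alone (adjusted p = 0.0414, limma). In Col1a1 and Col3a1 null P21 replicate 1 was the lowest and replicate 2 the highest array of its group.

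The collagen V probe sets, of chains that join collagen I fibrils, had age differences between -0.63 and 0.19 in both genotypes, none called. The cartilage chain Col11a2 completed the fibrillar collagens, with -0.29 and 0.06. The remaining tested collagens were Col7a1 of anchoring fibrils and the fibril-associated Col16a1, also without a call. Col7a1 (1419613_at) had the second smallest p at P21 and read 9.93, 10.48 and 10.03 in wild type and 10.00, 9.36 and 8.92 in null, a difference of -0.72 ± 0.28 (adjusted p = 0.466, limma) that was 0.02 without the 3 arrays. At P49 it read 10.12, 10.51 and 10.10 in wild type and 9.91, 10.01 and 10.24 in null.

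Between genotypes, no member was called at P21, where 0.081% of all probe sets were called. With limma 4 of the 38 had an unadjusted p under 0.05, the smallest adjusted p was 0.438, and the differences ran from -0.72 to 0.63 with a median of 0.11 (-0.008 over all probe sets). None was called without the 3 arrays either (3 with an unadjusted p under 0.05, smallest adjusted p = 0.324, limma), and the median was 0.02. At P49 the 2 Col18a1 probe sets were called lower (5.3% of 38), against 0.825% of all probe sets called lower and 2.08% called in either direction, and no member was called higher. The P49 differences of the 38 had a median of 0.004 (-0.02 over all) and split into 19 positive and 19 negative. The standard errors of a difference ran from 0.08 (Sparc) to 0.41 (Col1a1).

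**Figure D4:**
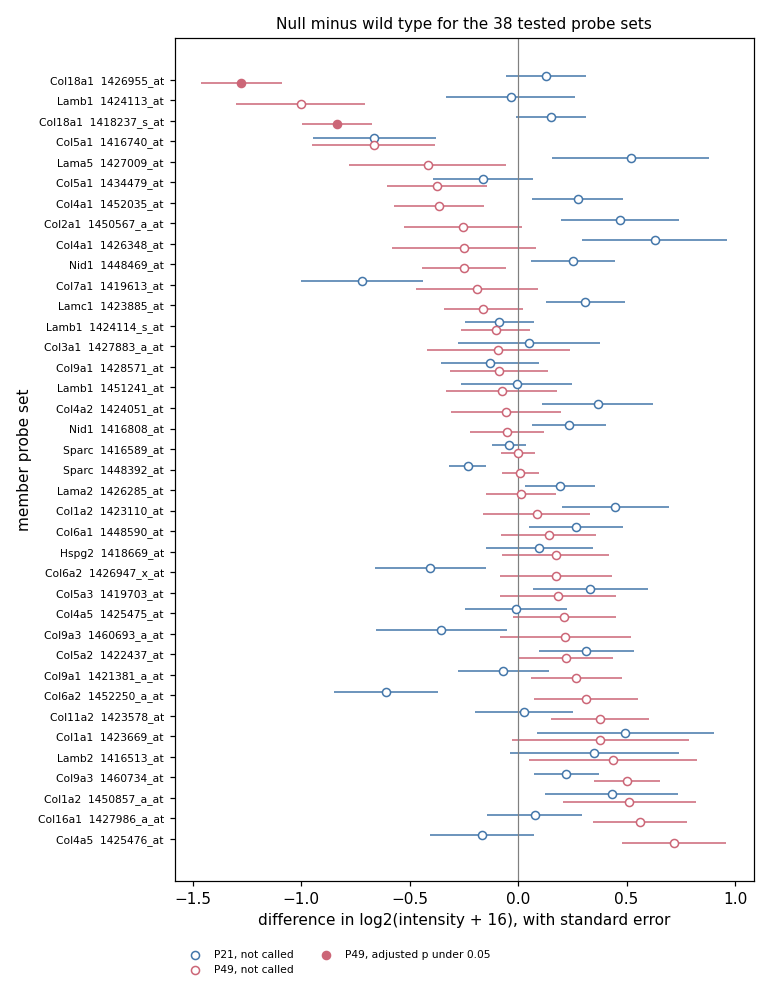
Null minus wild type in log2(intensity + 16) for the 38 tested members at P21 and P49, with standard errors from the fit over 12 arrays, ordered by the P49 difference; filled points passed an adjusted p of 0.05. The 2 Col18a1 probe sets, at -1.28 and -0.83 at P49, are the filled points.

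The 43 probe sets not tested include all those of 24 genes, among them Col8a1, Col11a1, Col12a1, Col14a1, Col15a1, Col19a1, Lama1, Lama3, Lama4, Lamb3, Lamc3 and Nid2. Their means over 12 arrays lay between 5.95 and 9.92. With no filter none of the 43 was called in any of the 5 comparisons (limma), and 10 had an unadjusted p under 0.05 in at least 1. Col19a1 1421698_a_at, a fibril-associated collagen just under the filter (mean 9.92), had a null age difference of -1.14 (adjusted p = 0.0729, limma). It passed the filter and was called without null P49 replicate 1 (-1.33, adjusted p = 0.0361, limma). Of the 38 tested probe sets 13 had at least 1 group mean below the filter value, and in 12 of these it was a P49 group, wild type in 8 and null in 5; in 7 the mean of the 6 P49 arrays was below it. Col9a1 1421381_a_at, called with age in wild type, and Col2a1, called with age in null, had their lower group below the filter value.

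Genes that build, bind or cut these matrix proteins were counted from lists. Of 14 tested enzymes and chaperones of collagen synthesis and cross-linking none was called in any of the 5 comparisons; at most 2 had an unadjusted p under 0.05, at P49 between genotypes (limma). Of 19 tested matrix receptors 1, the integrin chain Itgb5, was called, higher with age in null (0.71 ± 0.18, adjusted p = 0.0375, limma). Of 23 other basement membrane and matrix genes 2 were higher and 1 lower in null at P49. The collagen-binding proteoglycan Fmod was higher by 1.41 ± 0.30 (adjusted p = 0.0248, limma), the matrilin Matn4 by 1.13 ± 0.22 (adjusted p = 0.0114, limma), and the glycoprotein Tnc was lower (-1.10 ± 0.25, adjusted p = 0.0329, limma). With age in null, Efemp1 (1.35), Ogn (1.80), Dcn (1.21) and Fmod (1.19) were called higher, and Tnc (-1.37) and the elastin gene Eln (-0.89) lower. Eln was the 1 gene of this list called with age in wild type (-1.17 ± 0.21, adjusted p = 0.0234, limma). The median age difference of the list was 0.07 in wild type and 0.20 in null, on the other side of 0 from that of the members.

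Of 13 tested matrix proteases and inhibitors, the aggrecanase Adamts4 was lower in null at P49 (-0.66 ± 0.15, adjusted p = 0.0383, limma) and with age in null (-0.78), and the protease inhibitor Reck was higher with age in null (1.11). Of 12 tested genes of the TGF-beta pathway, which induces many collagens, the receptors Tgfbr1 (1.04 ± 0.14, adjusted p = 0.000638, limma) and Tgfbr2 (1.25 ± 0.16, adjusted p = 0.000597, limma) were higher in null at P49. Both were also higher with age in null (0.64 and 0.69), and no gene of the list was called at P21 or with age in wild type.

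Markers of the cells that make these proteins did not all follow them. Of 15 endothelial markers 13 had a probe set, 12 lay above the filter (Tie1 did not), and none was called in any comparison (limma; 1 and 4 had an unadjusted p under 0.05 with age in wild type and null). Their median age difference was 0.02 in wild type and -0.26 in null, and the summed intensity was 33757 to 35486 and 34743 to 42407 in wild type and null at P21, and 31360 to 36810 and 32528 to 37960 at P49. Of 12 mural cell markers 5 lay above the filter and none was called (limma; 0 and 1 with an unadjusted p under 0.05 with age); Cspg4, Abcc9, Kcnj8, Myh11, Cnn1, Des and Anpep lay below it. Their sums were 43539 to 53227 and 48118 to 51492 at P21 and 42425 to 49335 and 42522 to 55819 at P49.

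Of 15 markers of meningeal and perivascular fibroblasts 14 had a probe set and 10 lay above the filter (Foxd1, Nupr1, Slc22a6 and Osr1 did not). None was called lower in any comparison; Igfbp2 was higher in null at P49 (1.65), and Dcn and Ogn were higher with age in null. Their sums were 109191 to 152411 in wild type and 90919 to 190380 in null at P21, with null P21 replicate 1 lowest and replicate 2 highest as in Col1a1 and Col3a1, and 162730 to 185420 and 208555 to 218682 at P49. Astrocyte and Bergmann glia markers had 11 of 11 above the filter. Gfap (3.30), Aqp4 (0.94) and Vim (1.05) were higher in null at P49 and also higher with age in null, where Fabp7 and Gdf10 were lower. No marker of this list was called with age in wild type. Fabp7 changed with age by -0.92 in wild type (adjusted p = 0.1055, limma) and -0.91 in null (adjusted p = 0.031, limma). Gdf10 changed by -0.20 in wild type and -0.53 in null. The sums of the astrocyte and Bergmann glia markers were 355354 to 394890 in wild type and 354161 to 371172 in null at P21, and 341097 to 357105 and 478628 to 535315 at P49. Of the blood cell markers 4 of 6 had a probe set and 1, Alas2, lay above the filter (Hba-a1, Hbb-b2 and Slc4a1 did not); Alas2 was lower with age in null (-3.28, adjusted p = 0.00681, limma), and the summed intensity was 1943 to 4527 and 4628 to 17829 at P21, highest on null P21 replicate 1, and 1929 to 2130 and 1149 to 2100 at P49. Choroid plexus epithelium, a tissue that can remain attached to dissected cerebellum, had 10 of 14 markers with a probe set and 3 above the filter (Kl, Slc4a5, Kcne2, Sostdc1, Cldn1, Cldn2 and F5 were below it). Its summed intensity varied from 8616 to 196309 among P21 arrays and was 10532 to 37540 in wild type and 81452 to 224370 in null at P49. Most of this sum came from 1 probe set, that of Ttr, which read 12.34 to 17.66 over the 12 arrays. The part of these cell types in the age and genotype differences of the members was not tested.

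Microglial markers were higher in null at P49 for 11 of 11 tested, with sums of 31330 to 33066 in wild type and 165025 to 209098 in null. Of 8 tested oligodendrocyte markers 4 were lower with age in wild type and 2 in null, and their sums in wild type were 496747 to 586411 at P21 and 384673 to 409316 at P49, and in null 387345 to 469189 and 380786 to 383638. Granule neuron markers gave no call (7 tested; limma, at most 1 with an unadjusted p under 0.05 in a comparison), and neither did 5 tested markers of the granule cell progenitors of the early postnatal cerebellum. The part of these shifts in the members' differences was not tested.

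**Figure D5:**
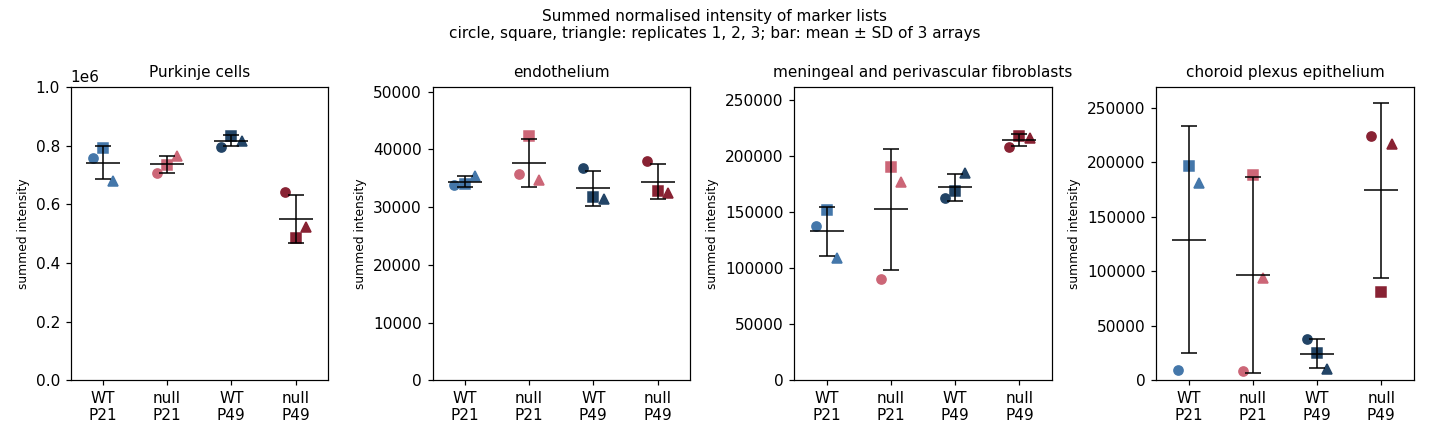
Summed normalised intensity of the probe sets of 4 marker lists on each of the 12 arrays by genotype and age, with the mean and SD of 3 arrays and axes from 0. Purkinje markers are lowest in null at P49, endothelial markers overlap between all 4 groups, and the choroid plexus sum, mostly Ttr, varies between arrays of 1 group.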

How the data were processed

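Expression in cerebellum was measured on 12 arrays, 3 animals in each of 4 groups, taken from the time-point and genotype labels. The treatment text in the labels gives P21 for all mice and was not followed, since the time-point labels give P21 and P49. The authors deposited 1 linear intensity per probe set and array; for that step neither algorithm nor target of scaling is given in the sources used here. The members and all lists were chosen with earlier results of these data known.

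From 22690 probe sets, 64 controls were left out. Intensities were taken as log2(intensity + 16) and quantile normalised, and probe sets with a mean under the 40th percentile (log2 of 9.929, an intensity of 959) were left out of the tests. limma 3.58.1 in R 4.3.3 (lmFit, eBayes with a mean-variance trend) fitted 4 group means to all 12 arrays, with 5 two-sided contrasts and Benjamini-Hochberg adjustment over 13576 probe sets at 0.05. The fit was tested on simulated data. Probe sets were kept apart, so a gene can be counted more than once. With intensities of 1 value per probe set no depth is given, and the 3 arrays per group limit the precision. The p-values rest on a spread between animals that was pooled over the 4 groups and drawn towards the trend over all probe sets tested. Members were chosen by the gene names of the platform annotation, where 20380 probe sets have 1 symbol, 691 several and 1555 none listed. Printed names are RefSeq symbols for the 20364 probe sets with 1 symbol (controls included) that matched the RefSeq table by identifier. For the 29 that did not match, the platform symbol was kept.

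Array values are printed for each member called in a comparison, the 3 with the smallest p in each comparison, and the probe set of highest mean of 14 genes: Col4a1, Col4a2, Lamb2, Lamc1, Lama4, Lama5, Nid1, Nid2, Hspg2, Sparc, Col1a1, Col1a2, Col3a1 and Col18a1. Pathway genes are named where called. Sums of marker lists add the normalised intensities of 1 probe set per gene. Alternatives changed the pseudocount, normalisation, filter, probe sets per gene, arrays fitted, trend and replicate block. Others left out each array, or the 3 P21 arrays named above. Deviations from the group means of arrays with the same replicate number correlated at 0.171, 0.111 and 0.118 between the P49 groups. Between other groups they correlated at -0.292 to 0.154, with 0.154, 0.064 and 0.111 between wild type at P21 and at P49. Arrays of different number were not compared, so these values do not show pairing. The labels give no litter or day behind the numbers, and the replicate block was run only as an alternative.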

Additional observations from a re-analysis of the deposited data

Results flagged for a closer look

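The genotype difference of Col18a1 1426955_at at P49 minus that at P21 was -1.41 on the log2 scale (SE 0.26, adjusted p = 0.0334, limma), a test of the difference between the ages itself. Null minus wild type was 0.13 at P21 and -1.28 at P49, where each of 3 null arrays lay below each of the other 9. The second probe set gave -0.98 (adjusted p = 0.106, limma). Over the alternatives the first ran from -1.64 to -1.18 with adjusted p from 0.00518 to 0.119, and 11 of 21 did not call it.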

How the results depend on the processing

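The 20 calls of members were refitted 421 times: 344 refits kept the call, 77 lost it and 0 turned the sign. Members called lower with age in wild type (6) numbered 3 with the filter at the 60th percentile (11 members tested), 3 with 1 probe set per gene (26 tested) and 1 to 9 with 1 array left out; in null (11) they numbered 4, 7, 5 with only the arrays of the 2 groups, 6 without the 3 arrays whose sex-linked genes go against the label, and 8 to 13. Members called lower in null at P49 (2) numbered 1 with 1 probe set per gene and 1 to 2 with an array left out; the interaction call (1) numbered 0 without the trend, 0 with the replicate block, 0 without the 3 arrays and 0 to 2. No member was called higher as reported. With the replicate block 4 members were lower with age in wild type (Sparc 1448392_at and Col9a1 1421381_a_at lost), 11 in null and 2 between genotypes at P49 (adjusted p = 0.00509 and 0.0327, limma), and the Col18a1 interaction had adjusted p = 0.075; it changed no other call of a member. Over all probe sets, the 11 called at P21 became 7 with no filter, 5 with 1 per gene, 0 with the 2 groups alone, 4 without the trend, 4 without the 3 arrays and 2 to 28 with an array left out. The 283 at P49 became 543 with the 2 groups alone, 512 without the 3 arrays and 146 to 454; the 58 of the interaction 14 to 99; the 78 with age in wild type 171, 38 without the trend, 177 and 14 to 157; and the 620 in null 142, 964 and 220 to 1160. The cause was not tested. No scaling moved the median of all probe sets by over 0.1. Low signals limit 13 tested members with a group mean below the filter.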
